A study of Mus musculus with 38 samples.

Results

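Untreated omental tumors of a pair of mouse models of high-grade serous ovarian cancer (HGSOC), HGS2 and 60577, were compared for baseline differences in malignant, stromal and immune genes. All control tumors of the series were taken by their labels, 7 of HGS2 and 6 of 60577, which are 13 of the 34 tumors and 13 of the 38 RNA-sequencing libraries. The series as a whole followed carboplatin and paclitaxel treatment in both models, and the treated tumors entered here only through the filter on low counts and the estimate of the spread between tumors. HGS2 cells had been injected into the peritoneal cavity of female C57BL/6J mice, and 60577 cells into female FVB mice, at 8 to 9 weeks of age, so that each tumor grew in a host of its own strain. Control mice received 3 weekly doses of the drug vehicle, starting 49 days after injection for HGS2 and 21 days after injection for 60577. Tumors were collected 1 day (TP1) or 7 days (TP2) after the last dose, on days 64 and 70 for HGS2 (n = 3 and 4) and on days 36 and 42 for 60577 (n = 3 and 3). Each model is 1 malignant cell line, also sequenced as a monoculture (n = 2 per line), and the genotype of the malignant cells was not given in the sources used here. Model, host strain and days since injection therefore change together and cannot be told apart in any difference below.

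HGSOC spreads through the peritoneal cavity, and the omentum, a fat-rich fold of peritoneum with immune cell clusters, is its usual site of metastasis. Tumors there mix keratin-bearing malignant cells with fibroblasts that lay down collagen, mesothelial cells that line the surface, vessels, fat cells and infiltrating leukocytes. Collagen-rich matrix is cross-linked by lysyl oxidases, and the type I interferon response, antigen presentation and lymphocyte entry shape the immune side of the tissue.

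The control libraries held 24519694 to 39153745 counts each in HGS2 (median 27759743) and 22314684 to 31177747 in 60577 (median 26828555). Levels are given as counts-per-million (CPM) after TMM scaling, which corrects for differences in composition between libraries. Epithelial and mesothelial markers of omental HGSOC were present in both models, and keratins and Upk3b were also present in both cell lines. Of the strain checks, Ifi202b was at 26.1 to 38.8 CPM in 60577 and at 0 to 0.242 CPM in HGS2 tumors, and Hc had its higher median in HGS2 tumors. Nnt, which carries a deletion in C57BL/6J mice, was at 33.8 to 62.6 CPM in HGS2 and 49.8 to 69.9 CPM in 60577 tumors, so its gene-level count did not separate the strains.

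Some libraries stood apart. HGS2 TP1 control replicate 3 and HGS2 TP2 control replicate 2 carried pancreatic acinar genes at 6.54% and 10.8% of all counts, against at most 0.199% in any other control tumor. The same tumors had 13.0% and 20.9% of counts in 7SL RNA, an abundant non-coding RNA, as did 60577 TP2 control replicate 1 with 14.1%; the other tumors had 2.91% to 5.02%. HGS2 TP1 control replicates 1 and 3 were low in mesothelial markers, with summed levels of 107 and 275 CPM against 2357 to 3346 CPM in the other HGS2 tumors and 3070 to 4081 CPM in the 60577 tumors. Upk3b, a mesothelial uroplakin, was at 29.7 and 44.2 CPM in those tumors and at 858 to 1512 CPM in the other HGS2 tumors. The cell lines, without host tissue, held the mesothelial markers too. They summed to 4798 and 3554 CPM in the HGS2 line and 5458 and 5959 CPM in the 60577 line. The list therefore does not mark host mesothelium alone, and the source of the low values was not tested. Every count below was therefore also made without the 3 atypical HGS2 tumors, which leaves 4 HGS2 tumors, only 1 of them from TP1. 60577 TP2 control replicate 2 stood apart too. Its hypoxia and glycolysis genes summed to 5888 CPM, against 1811 to 2044 CPM in the other 60577 tumors. Its monocyte and neutrophil genes summed to 879 CPM, against 95.4 to 226 CPM. The counts by list were not made without it.

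**Figure D1:**
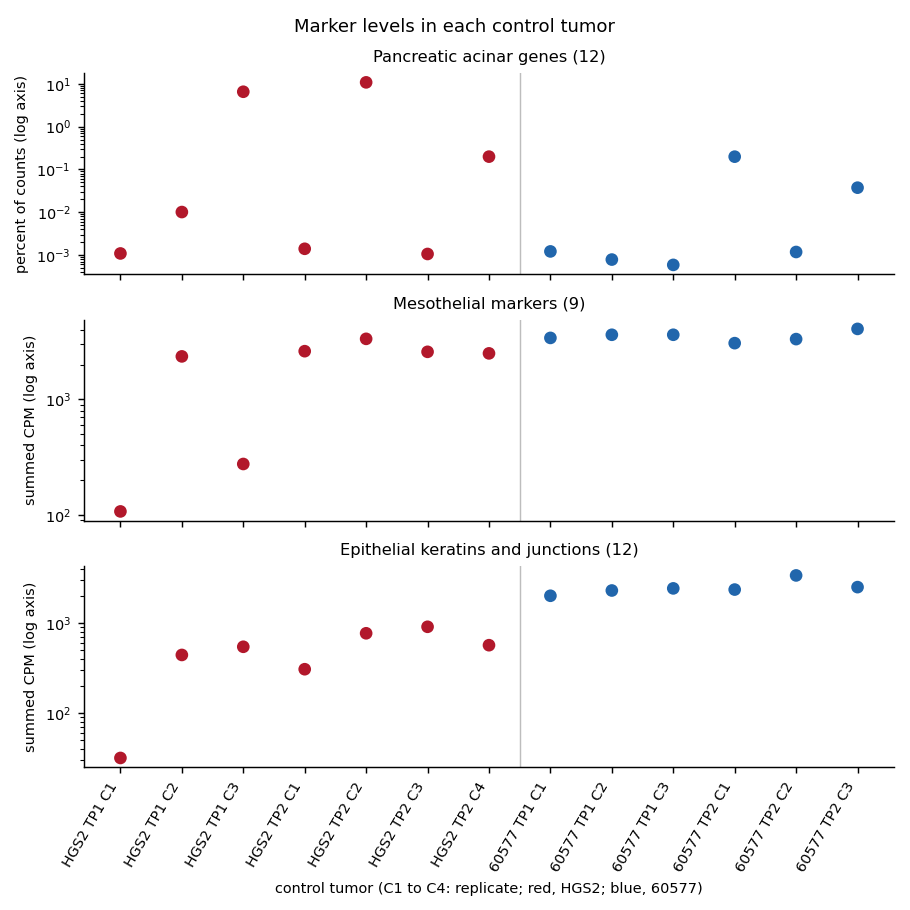
Summed level of pancreatic acinar genes (percent of counts), mesothelial markers (CPM) and epithelial keratins and junctions (CPM) on log axes, 1 point per control tumor, red for HGS2 and blue for 60577. Acinar genes reached 6.54% and 10.8% in HGS2 TP1 C3 and HGS2 TP2 C2, and mesothelial markers were low in HGS2 TP1 C1 and C3, at 107 and 275 CPM.

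The models differed widely before any treatment. Of 16241 genes tested, 2146 were higher in HGS2 (13.2%) and 1431 were lower (8.81%), with an adjusted p under 0.05 and a log2 difference beyond 1 in either direction by edgeR's quasi-likelihood test. For 3729 genes (23.0%) the 7 HGS2 and 6 60577 values did not overlap, and 1983 of these were also called, 970 higher and 1013 lower. Without the 3 atypical tumors, 1831 of 16319 genes were higher (11.2%) and 1552 were lower (9.51%). Both fits called 1686 genes higher and 1216 lower, and none in opposite directions. With 60577 TP2 control replicate 2 left out instead, 2042 of 16384 genes were higher and 1422 lower. The distance between tumors, 1 minus the Pearson correlation of log2 CPM, averaged 0.157 between models, 0.0841 among HGS2 tumors and 0.032 among 60577 tumors. Between-model distance exceeded within-model distance by 0.0948 (one-sided p = 0.000583 by exact permutation of the tumors, the smallest that the 1716 divisions of 13 tumors can give). Without the 3 atypical tumors the mean distance among HGS2 tumors was 0.0441.

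Read by compartment, 76 of 170 tested stromal list genes and 78 of 174 immune list genes were higher in HGS2, against 9 and 11 that were lower, with median log2 differences of 1.01 and 1.11. Malignant-cell lists showed 15 of 135 genes higher and 26 lower, with a median of -0.17. Over all tested genes the median log2 difference was 0.05. Without the 3 atypical tumors the stromal counts were 71 higher and 11 lower, the immune counts 74 and 7, and the malignant counts 12 and 32. In bulk tissue, fewer cells of a type and less RNA per cell cannot be told apart.

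**Figure D2:**
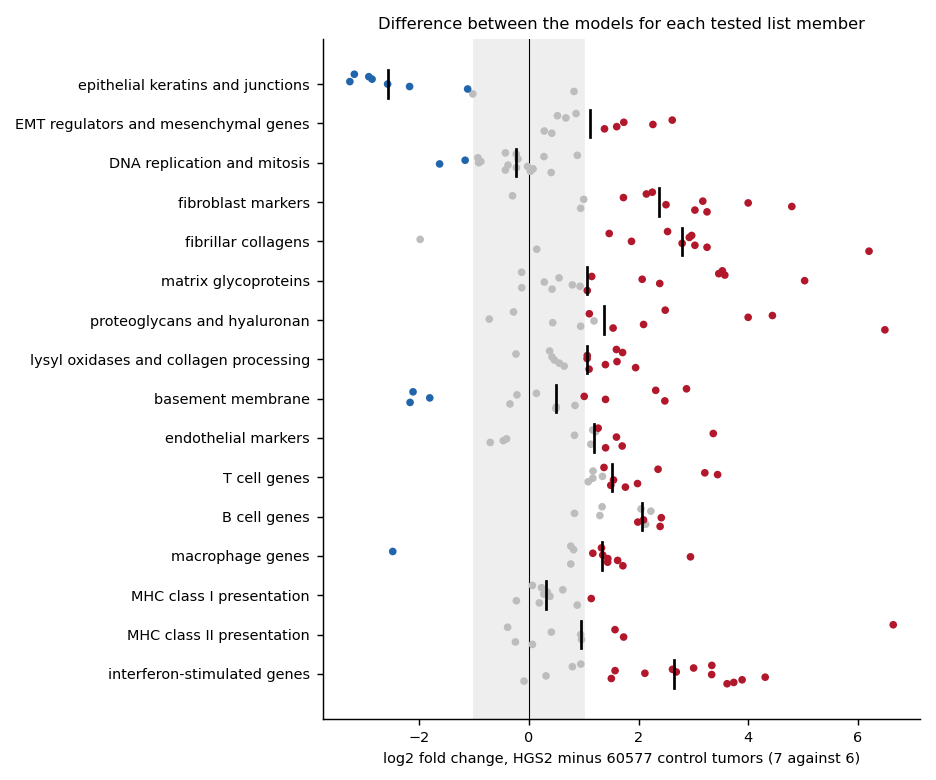
Log2 difference of HGS2 minus 60577 control tumors for each tested gene of 16 lists, 1 point per gene, with a black bar at the median of the list; red genes were called higher, blue lower and gray not called, and the shaded band marks absolute log2 differences up to 1. Fibrillar collagens had 9 of 11 genes higher and interferon-stimulated genes 12 of 16, while epithelial keratins and junctions had 7 of 9 lower.

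Epithelial genes were lower in HGS2 tumors. Of 12 keratin and junction genes, 9 were tested and 7 were lower, with none higher (median log2 difference -2.58). Simple-epithelial keratins separated the models. Krt8 was at 3.56 to 188 CPM in HGS2 tumors (median 65.5) and at 377 to 709.99 CPM in 60577 tumors (median 444), 9.09-fold lower in HGS2 (log2 -3.18 ± 0.66 SE, edgeR adjusted p = 0.00026). Its partner Krt18 was at 6.25 to 146 CPM in HGS2 and 373 to 731 CPM in 60577 tumors, 9.62-fold lower (log2 -3.27 ± 0.53). Krt7 and Krt19 were 7.57-fold and 7.27-fold lower. None of these 4 keratins overlapped between the models. Dsp, which anchors desmosomes to keratin filaments, was lower too (log2 -2.18 ± 0.53). The keratin and junction genes summed to 31.8 CPM in HGS2 TP1 replicate 1, which was also low in mesothelial markers, and to 307 to 907 CPM in the other HGS2 tumors, against 2005 to 3372 CPM in 60577 tumors.

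The surface adhesion molecule Epcam was at 22.6 and 11.98 CPM in the acinar-rich HGS2 tumors, at 0.335 to 2.94 CPM in the other 5, and at 21.99 to 56.4 CPM in 60577 tumors. It was 5.97-fold lower in HGS2 over all tumors (adjusted p = 0.00199). The tight junction gene Cldn3 moved with the same tumors: it was at 31.7 and 33.3 CPM in the acinar-rich tumors, at 0.484 to 1.21 CPM in the other HGS2 tumors and at 3.55 to 11.1 CPM in 60577. Its log2 difference was 0.82 (adjusted p = 0.447) with all tumors and -2.92 (adjusted p = 0.0058) without the 3 atypical ones. Cdh1, which encodes E-cadherin, had a log2 difference of -1.02 ± 0.46 over all tumors and did not pass edgeR's test (adjusted p = 0.0626). It was at 58.5 and 55.3 CPM in the acinar-rich tumors, at 5.56 to 70.6 CPM in the other HGS2 tumors and at 48.4 to 107 CPM in 60577. Without the acinar-rich pair all 9 tested keratin and junction genes were called lower, and 7 without the 3 atypical tumors.

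Some regulators of the mesenchymal state were higher in HGS2. Of 10 epithelial-mesenchymal transition genes, 5 were higher and none lower, with or without the atypical tumors. The transcription factor Snai2 was at 5.12 to 17.5 CPM in HGS2 and 1.74 to 2.48 CPM in 60577 tumors (4.79-fold, adjusted p = 3.7e-08). Twist1 was 3.32-fold and Twist2 6.12-fold higher, again with no overlap. Vim and Fn1 did not pass the call, with log2 differences of 0.67 ± 0.20 and 0.28 ± 0.23. 60577 TP2 replicate 2 held 1806 and 13200 CPM of them, against 844 to 1176 and 5710 to 8415 CPM in the other 60577 tumors. Fibroblasts express these genes too, and the malignant cells' share of them was not tested.

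Lineage markers of HGSOC were mixed, with 3 of 9 higher and 2 lower, or 1 and 2 without the atypical tumors. Esr1, the estrogen receptor, was at 18.4 to 375 CPM in HGS2 (median 49.6) and 9.19 to 24.6 CPM in 60577 tumors, 5.11-fold higher in HGS2 (log2 2.35 ± 0.45, adjusted p = 0.00012), although 2 HGS2 tumors, at 18.4 and 20.3 CPM, lay within the 60577 range. Pgr, the progesterone receptor, was called higher (log2 3.46 ± 1.12), but it was at 16.7 CPM in HGS2 TP1 replicate 3 and at 0.121 to 1.304 CPM in the other HGS2 tumors, and without the 3 atypical tumors its adjusted p was 0.144. Wt1 was lower in HGS2, at 24.8 to 255 CPM against 369 to 439.8 CPM (log2 -1.52 ± 0.29). Without the atypical tumors its log2 difference was -1.04. Msln and Muc16, which mesothelial cells share with HGSOC cells, were lowest at 5.46 and 4.28 CPM in HGS2 and did not pass the test (log2 -1.06 ± 0.45 and -1.13 ± 0.59).

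Of 13 genes of the p53, RB and homologous recombination pathways, 1 was called in the tumors (median log2 difference -0.09). Between the cell lines 1 of 13 was lower in HGS2, with a median of -0.81. Trp53 was at 10.8 to 40.8 CPM in the tumors and at 1.05 to 3.18 CPM in the lines. The malignant cells' share of the tumor values was not tested. Brca2, which acts in homologous recombination, was at 14.6 to 27.3 CPM in HGS2 and 32.8 to 55.9 CPM in 60577 tumors (2.32-fold lower, adjusted p = 2.4e-06). Trp53, Brca1, Rb1 and Cdkn2a did not meet the call, with log2 differences of 0.64, 0.92, -0.09 and -0.05.

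Few proliferation genes were called, near the shares over all tested genes, of which 13.2% were higher and 8.81% lower. Of 17 replication and mitosis genes, 2 were lower, both subunits of the replicative helicase: Mcm2 was at 26.8 to 106 CPM in HGS2 and 177 to 207 CPM in 60577 tumors (3.09-fold), and Mcm6 was 2.24-fold lower. Mki67, the proliferation marker, was at 85.1 to 391 CPM in HGS2 and 240.4 to 334 CPM in 60577 tumors (log2 -0.20 ± 0.24, adjusted p = 0.497). Among 13 cell cycle drivers 1 was higher and 1 lower, again near those shares: Ccnd1 was 3.14-fold higher and Mycn 2.32-fold lower in HGS2. HGS2 tumors spanned a wider range than 60577 tumors here, from 397 to 1846 CPM summed over replication and mitosis genes against 1448 to 1621 CPM.

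Signaling genes moved in both directions. Among 13 growth factor receptors, Igf1r, Epha2 and Fgfr2 were lower (log2 -1.496, -1.36 and -1.16) and Ephb2 was higher (1.49). Of 12 Notch pathway genes, the ligands Jag2 and Dll1 were lower (log2 -1.78 and -1.62), and the receptors Notch1, Notch3 and Notch4 were higher (1.43, 1.23 and 1.14). Without the 3 atypical tumors, Notch1 and Notch4 were not called (0.83 and 0.59). Of 13 WNT pathway genes, 2 were higher and 2 lower (median log2 difference -0.21), or 2 and 4 without the atypical tumors. The higher genes encode secreted WNT antagonists: Sfrp1 was at 83.7 to 315 CPM against 3.39 to 44.3 CPM (8.27-fold), and Sfrp2 at 27.6 to 353 CPM against 4.05 to 13.0 CPM (17.7-fold). The lower genes were the ligand Wnt5a and the target gene Axin2 (log2 -1.41 and -1.10). Of 12 hypoxia and glycolysis genes, 3 were lower in HGS2 and none higher. Their median log2 difference was 0.01 at TP1 and -0.90 at TP2, where 60577 TP2 replicate 2 stood apart with a summed level of 5888 CPM against 1811 to 2044 CPM in the other 60577 tumors. Ca9, which encodes carbonic anhydrase 9, had medians of 12.9 CPM in HGS2 and 51.3 CPM in 60577, and Ndrg1 and Vegfa were also lower (log2 -1.53 and -1.13). Without the atypical tumors Vegfa was not called (log2 -0.86).

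Fibrillar collagens were higher in HGS2 tumors. Of 11 genes, 9 were called higher, and for 9 the models did not overlap; the median log2 difference over the list was 2.79. The same number, 9, was called without the atypical tumors, at TP1 alone and at TP2 alone. Col1a1, the main chain of type I collagen, was at 11273 to 69867 CPM in HGS2 (median 23672) and at 2095 to 3996 CPM in 60577 tumors (median 2985), 9.49-fold higher (log2 3.25 ± 0.39, adjusted p = 2.6e-07). Col3a1 was at 9398 to 33806 CPM against 1749 to 3193 CPM (7.59-fold), and Col5a1, which nucleates the fibrils, at 1862 to 3286 CPM against 227 to 456 CPM (7.82-fold, adjusted p = 1.2e-11). Even the HGS2 tumor with the least of each chain stood above every 60577 tumor. Of the 11, the largest difference was that of Col11a1, a minor fibril chain (chr3:114030540-114220718, GRCm38, + strand), at 66.9 to 939.7 CPM in HGS2 and 0.810 to 6.95 CPM in 60577 tumors (73.6-fold, log2 6.20 ± 0.60). Summed over the list, fibrillar collagens made up 30125 to 140559 CPM of HGS2 and 6101 to 10940 CPM of 60577 tumors.

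The matrix that surrounds the fibrils was higher as well. Of the other collagens 7 of 11 genes were higher, of matrix glycoproteins 8 of 15, of proteoglycans and hyaluronan genes 7 of 12, and none of these lists had a lower gene. Postn, the matricellular protein periostin, was at 136 to 2161 CPM in HGS2 and 13.3 to 61.0 CPM in 60577 tumors (32.6-fold, adjusted p = 1.6e-08). Tnc, which encodes tenascin C, was 11.01-fold higher, with 1 HGS2 tumor at 204 CPM inside the 60577 range of 95.5 to 261 CPM. Thbs2 was 11.9-fold higher without overlap. Spp1 (osteopontin) did not differ by the test (log2 0.55 ± 0.67). Among proteoglycans, Vcan (versican) was 5.597-fold, Lum (lumican) 16.0-fold and Ogn 21.7-fold higher, all without overlap. Dcn (decorin) was at 400.0 to 1427 CPM against 393 to 580.2 CPM and was below the fold threshold (log2 0.94 ± 0.31). The cartilage proteoglycan Acan was at 0.0691 to 56.5 CPM in HGS2 and 0 to 0.498 CPM in 60577 tumors, and the HGS2 range reached down into that of 60577.

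Enzymes that process collagen were higher in HGS2 too, with 8 of 14 genes called and none lower. Lox, the lysyl oxidase that starts collagen cross-links, was at 507 to 1253 CPM in HGS2 and 183 to 378 CPM in 60577 tumors (3.85-fold, adjusted p = 2.5e-06). Loxl2 was 2.63-fold higher with overlapping ranges. Serpinh1, the collagen chaperone HSP47, and Plod2, a lysyl hydroxylase, were higher by 1.59 ± 0.19 and 1.71 ± 0.28 on the log2 scale. Loxl4 was called with all tumors (log2 1.61) and not without the 3 atypical ones (0.70).

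Basement membrane genes split by laminin chain, with 5 of 14 higher and 3 lower. Nid2 was at 62.5 to 349 CPM in HGS2 and 12.8 to 39.5 CPM in 60577 tumors (7.32-fold higher). Epithelial laminin chains were lower in HGS2: Lama5 was at 57.8 to 448 CPM against 598 to 912 CPM (3.504-fold), and Lama1 was 4.49-fold lower. Lama2, a laminin chain of mesenchymal tissue, was 5.57-fold higher and lost its call without the atypical tumors (log2 1.31, adjusted p = 0.0579). Among 14 integrins, 5 were higher and 1 lower. The lower one was Itga3, a laminin receptor subunit, at 43.0 to 127 CPM in HGS2 and 286 to 353 CPM in 60577 tumors (5.34-fold, adjusted p = 6.2e-10). Itga4, a subunit leukocytes use to bind VCAM1 and fibronectin, was 5.01-fold higher without overlap.

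Matrix proteases were mixed, with 6 of 15 higher and 1 lower. Mmp3 (stromelysin) was 11.2-fold higher in HGS2, at 3.95 to 44.1 CPM against 0.742 to 5.79 CPM. Mmp9, a gelatinase of myeloid cells, was 13.7-fold higher, with single HGS2 tumors from 8.47 to 1268 CPM. Mmp12, the macrophage elastase, was the lower gene, at 0.698 to 8.12 CPM in HGS2 and 3.75 to 72.3 CPM in 60577 tumors (7.46-fold). The 72.3 CPM was that of 60577 TP2 replicate 2, and the other 60577 tumors were at 3.75 to 33.6 CPM.

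**Figure D3:**
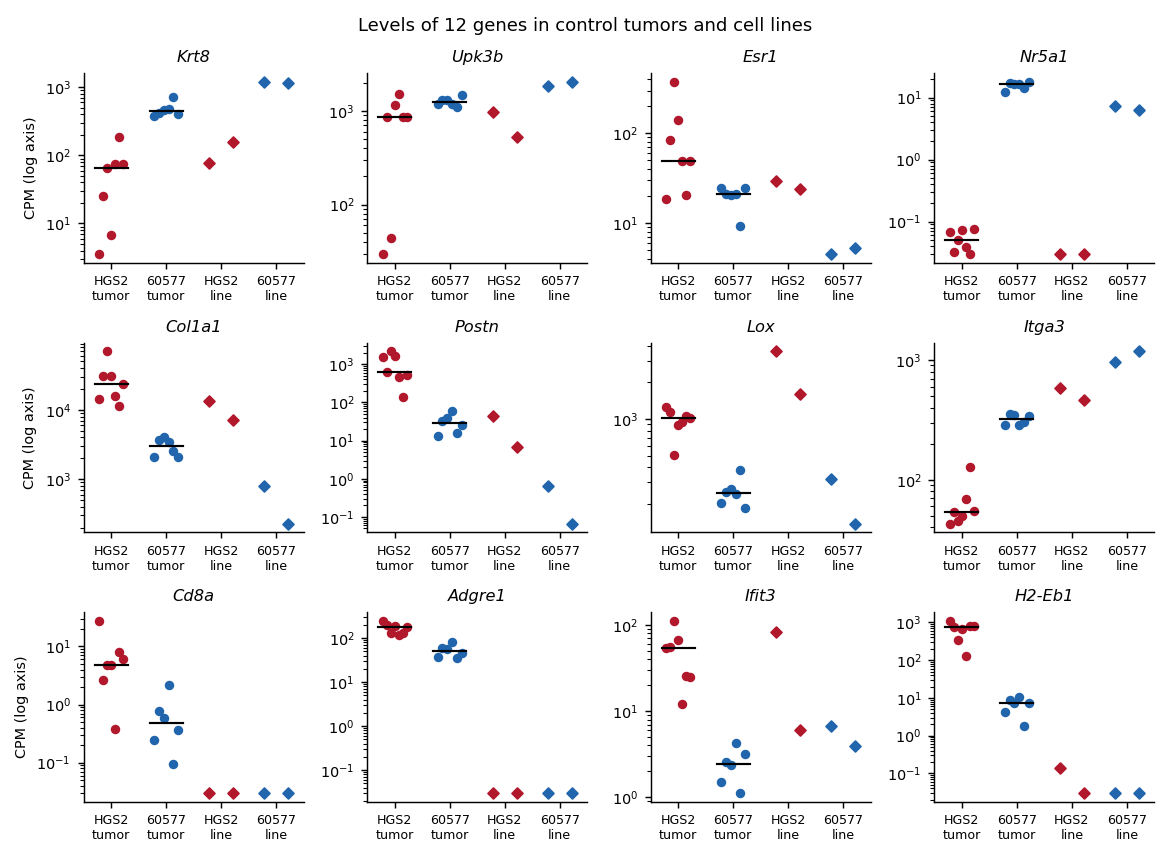
Levels of 12 genes in CPM on log axes, 1 circle per control tumor with a bar at the median and 1 diamond per cell line library, red for HGS2 and blue for 60577; libraries with no count are drawn at a fixed low value. Col1a1, Postn and H2-Eb1 were higher in all 7 HGS2 tumors than in any of the 6 60577 tumors, and Krt8, Nr5a1 and Itga3 lower in all 7.

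Stromal cell markers did not move as one. Of 12 fibroblast markers, 9 were higher in HGS2 and none lower (median log2 difference 2.37), and 10 were higher without the atypical tumors. Pdgfra, a PDGF receptor of fibroblasts, was not called (log2 1.00 ± 0.18). Of 10 myofibroblast and pericyte genes 4 were higher, among them the contractile genes Acta2 (48.7 to 474 CPM against 34.8 to 72.8 CPM, 4.15-fold) and Tagln (log2 2.05 ± 0.37). Mesothelial markers had 3 of 9 lower and none higher. Both cell lines also expressed this list, and the share of malignant cells in its tumor values was not tested. Bnc1, a transcription factor of mesothelium, was lower (log2 -1.74 ± 0.35), and Upk3b had a log2 difference of -1.10 ± 0.51 (adjusted p = 0.075) that was -0.47 without the atypical tumors.

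Endothelial markers depended on those tumors. With all tumors 5 of 12 were higher in HGS2, among them the junction genes Cdh5 (log2 1.40 ± 0.55) and Cldn5 (1.70 ± 0.67), Vwf (1.26 ± 0.46), and the lymphatic markers Lyve1 (1.60 ± 0.63) and Prox1 (3.36 ± 1.34). None of the 12 was called without the 3 tumors, without the acinar-rich pair or without the mesothelial-low pair, in edgeR's test. Pecam1 was at 39.1 to 92.9 CPM in HGS2 and 9.96 to 75.0 CPM in 60577 tumors (log2 0.83 ± 0.38, adjusted p = 0.0733). Of 10 adipocyte genes 3 were higher, with Adipoq (adiponectin) at 0.0501 to 14.8 CPM against 0.0347 to 1.11 CPM. Pancreatic acinar genes, 12 of 12 higher with all tumors, had none called without the 3 atypical tumors.

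Lymphocyte genes had higher values in HGS2 with wide spread between tumors. Of 12 T cell genes 8 were called higher, 5 without the 3 atypical tumors, all 12 without the acinar-rich pair, and 3 without the mesothelial-low pair. Cd3d, part of the T cell receptor complex, had medians of 3.24 CPM in HGS2 and 0.802 CPM in 60577 (log2 1.98 ± 0.67), while Cd3e did not pass the test (log2 1.08 ± 0.57, adjusted p = 0.115). Cd8a was at 0.388 to 27.5 CPM in HGS2 and 0.0934 to 2.16 CPM in 60577 tumors (10.9-fold, adjusted p = 0.00173). The highest value, 27.5 CPM, was that of HGS2 TP1 replicate 1, and without the 3 atypical tumors the log2 difference was 2.55 (adjusted p = 0.019) against 3.44 with them. Of 12 cytotoxic and Th1 genes, 7 were tested and 6 were higher, 5 without the 3 atypical tumors and 3 without the mesothelial-low pair. Among them were Nkg7 (7.27-fold), Prf1 (medians 1.10 and 0.151 CPM) and Eomes (1.29 and 0.202 CPM). Gzmb, at no more than 2.69 CPM in any tumor, was too low to be tested. In 60577 tumors Nkg7 was at 0.0311 to 1.28 CPM. Among control tumors, genes this low in 60577 pass the filter of 1 CPM mainly through HGS2, so the share called higher is partly set by it.

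Of 12 regulatory and checkpoint genes, 2 were higher and 1 was lower, near the shares over all tested genes (13.2% and 8.81%). Foxp3, the regulatory T cell factor, had a log2 difference of 0.55 ± 0.49 and Cd274, which encodes PD-L1, one of -0.06 ± 0.29. Tigit was 5.12-fold higher in HGS2. Pdcd1, which encodes PD-1, was instead 3.25-fold lower, at 0.930 to 16.9 CPM in HGS2 and 10.1 to 24.1 CPM in 60577 tumors (adjusted p = 0.00073).

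Plasma cell genes were higher in 7 of 9 tested and B cell genes in 4 of 10. Ighm, the IgM heavy chain, was at 235 to 2494 CPM in HGS2 and 3.64 to 253 CPM in 60577 tumors (11.6-fold, adjusted p = 0.00412), and the joining chain Jchain was 7.27-fold higher. Immunoglobulin genes differ between these mouse strains, so their fold differences are uncertain. The B cell antigen Ms4a1 did not pass the test (log2 2.22 ± 1.00, adjusted p = 0.0658): it was at 64.9 CPM in HGS2 TP2 replicate 3 and at 0.310 to 10.96 CPM in the other HGS2 tumors. Summed B cell genes reached 540.4 CPM in that tumor, against 13.3 to 109 CPM in the other HGS2 tumors. Lymph node stroma genes were also highest there, at 126 CPM against 9.72 to 38.9 CPM, with Cxcl13 at up to 85.7 CPM; their part in the B cell values was not tested.

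Macrophage genes separated the models more evenly. Of 12 genes, 8 were higher and 1 lower, and the summed level, 3075 to 5604 CPM in HGS2 against 1206 to 2925 CPM, did not overlap. Adgre1, the F4/80 antigen, was at 118 to 247 CPM in HGS2 and 34.7 to 80.6 CPM in 60577 tumors (3.28-fold, adjusted p = 5.5e-07). Csf1r, the growth factor receptor that macrophages depend on, was 2.24-fold higher, Mrc1 2.50-fold and C1qa 2.703-fold. Cd163, a scavenger receptor, was higher by 2.95 ± 0.62 on the log2 scale and by 1.38 without the atypical tumors. Of 9 genes of peritoneal and omental resident macrophages, 4 were higher and 1 lower (median log2 difference 1.35), with 3 higher and none lower without the 3 atypical tumors and 2 higher without the acinar-rich pair. Folr2 and Cbr2 were among the genes higher in HGS2 tumors (log2 1.92 and 2.27). Summed, the list was at 177 to 489 CPM in HGS2 and 213 to 263 CPM in 60577 tumors. The cell lines, without macrophages, held it at 489 and 369 CPM (HGS2) and 195 and 192 CPM (60577). The 2 members tested in the lines were called higher in HGS2, and the malignant cells' share in the tumors was not tested. The lower gene of that list was Timd4, and the lower one of the macrophage list was Marco. Marco was at 0.0379 to 8.82 CPM in HGS2 and 1.44 to 21.4 CPM in 60577 tumors (5.595-fold lower), and Timd4 was 4.64-fold lower. Both lost the call without the 3 atypical tumors (adjusted p = 0.132 and 0.0565).

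Among monocyte and neutrophil genes, 2 of 9 were higher and 1 lower. Ly6c2, a marker of inflammatory monocytes, was at 2.01 to 21.4 CPM in HGS2 and 0.243 to 1.61 CPM in 60577 tumors (16.6-fold), and the monocyte chemokine receptor Ccr2 was 3.08-fold higher. S100a8, an abundant neutrophil gene, did not differ by the test (log2 0.38 ± 0.55). Arg1, the arginase of suppressive myeloid cells, was lower (log2 -1.55 ± 0.62). It was at 645 CPM in 60577 TP2 replicate 2 and at 51.5 to 135 CPM in the other 60577 tumors, against 13.3 to 91.0 CPM in HGS2. Without that tumor its log2 difference was -0.76 (adjusted p = 0.295). Dendritic cell genes were higher in 5 of 12, or in 3 without the 3 atypical tumors, with Itgax and Siglech not called (log2 0.19 and 0.47). Of 10 mast cell and eosinophil genes, 7 were tested and 5 were higher, at low levels. Cpa3, a mast cell protease, was at 0.173 to 3.46 CPM against 0.0623 to 0.313 CPM, and Mcpt4 was at 0.0345 to 3.75 CPM against 0.0394 to 0.394 CPM. Neither reached 1 CPM, the limit of the filter on low counts, in any 60577 control tumor. Among control tumors only HGS2 carried them past that limit, so the share called higher is partly set by the filter.

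Antigen presentation genes gave a divided answer. Of 10 MHC class I genes 1 was higher, H2-K1, at 474 to 1468 CPM in HGS2 and 311 to 626 CPM in 60577 tumors (2.20-fold); its partner B2m had a log2 difference of 0.88 ± 0.29. Of 9 class II genes 3 were higher. H2-Eb1 (chr17:34305867-34316674, GRCm38, + strand), a class II beta chain, was at 130.1 to 1099 CPM in HGS2 and at 1.84 to 10.5 CPM in 60577 tumors (99.9-fold, log2 6.64 ± 0.51, adjusted p = 1.2e-10). Cd74, the invariant chain that assembles with every class II molecule, was at 319 to 2486 CPM against 446 to 2050.5 CPM (log2 0.06 ± 0.39, adjusted p = 0.907). H2-Aa was 3.31-fold higher and H2-Ab1 1.92-fold (adjusted p = 0.0601). MHC genes vary in sequence between C57BL/6J and FVB, and reads were aligned to the C57BL/6J genome. The part of mapping in these differences was not tested.

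Interferon-stimulated genes were higher in HGS2 as a group. Of 16 genes, 12 were higher and none lower (median log2 difference 2.65), 6 without overlap, and 11 were higher without the atypical tumors. Many such genes carry an interferon-stimulated response element, searched here as GAAANNGAAA or, on the other strand, TTTCNNTTTC, in the RefSeq promoter window of 300 bases per gene (250 before to 50 after the start, GRCm38.p6). The letters occurred in 7 of the 12 list genes with a promoter entry (58.3%), in 453 of 11257 tested genes (4.02%) and in 1079 of 27025 genes in all (3.99%). Overlapping matches were counted, and a match is a description of the sequence and not a site of binding. The promoters of Ifit1 (chr19:34640639-34640938, + strand), Ifit3 (chr19:34583279-34583578, + strand) and Isg15 (chr4:156200769-156201068, - strand), genes whose levels follow, are printed with the matches in capitals, 2 in Ifit1, 2 in Ifit3 and 3 in Isg15.
Ifit1: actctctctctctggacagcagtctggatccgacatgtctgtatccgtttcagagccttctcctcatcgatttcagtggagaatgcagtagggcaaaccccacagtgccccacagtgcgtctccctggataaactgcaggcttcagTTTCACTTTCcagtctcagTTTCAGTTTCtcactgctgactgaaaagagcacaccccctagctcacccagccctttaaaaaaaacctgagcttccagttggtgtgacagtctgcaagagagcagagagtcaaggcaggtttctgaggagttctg
Ifit3: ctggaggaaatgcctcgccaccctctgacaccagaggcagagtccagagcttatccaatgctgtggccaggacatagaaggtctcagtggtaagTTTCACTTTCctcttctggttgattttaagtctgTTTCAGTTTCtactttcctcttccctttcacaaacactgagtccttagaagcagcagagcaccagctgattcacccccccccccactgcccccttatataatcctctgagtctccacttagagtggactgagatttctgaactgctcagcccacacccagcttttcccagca
Isg15: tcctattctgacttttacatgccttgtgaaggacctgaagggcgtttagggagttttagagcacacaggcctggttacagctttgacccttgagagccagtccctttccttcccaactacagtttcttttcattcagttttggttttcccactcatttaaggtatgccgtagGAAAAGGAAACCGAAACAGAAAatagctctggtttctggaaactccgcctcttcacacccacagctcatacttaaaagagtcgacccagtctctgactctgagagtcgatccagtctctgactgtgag

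Ifit3, an antiviral RNA-binding protein and the gene of the second promoter, was at 12.2 to 111 CPM in HGS2 (median 54.3) and 1.12 to 4.23 CPM in 60577 tumors (median 2.46), 19.8-fold higher (log2 4.31 ± 0.67, adjusted p = 9.1e-06). Its neighbor Ifit1 was at 6.74 to 63.2 CPM against 1.40 to 2.98 CPM (14.8-fold). The lowest HGS2 tumor exceeded the highest 60577 tumor for both. Isg15, a ubiquitin-like modifier, was at 5.70 to 45.4 CPM against 3.30 to 8.76 CPM (4.33-fold, adjusted p = 0.00715), with overlap. Irf7, the factor that amplifies the response, was at 22.4 to 197 CPM in HGS2 and 4.52 to 11.5 CPM in 60577 tumors (10.1-fold). These letters are not in its window. The interferon-induced chemokines Cxcl9 and Cxcl10, which attract T cells, were higher by 3.73 ± 0.76 and 3.61 ± 0.65 on the log2 scale.

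Among 16 chemokines, 5 were higher and 2 lower. Cxcl12, the stromal chemokine that binds CXCR4, was at 177 to 593 CPM in HGS2 and 28.4 to 65.1 CPM in 60577 tumors (8.70-fold, adjusted p = 1.3e-09). Cxcl2, a neutrophil attractant, was 4.56-fold lower in HGS2, and 60577 TP2 replicate 2 held 29.5 CPM of it against 0.330 to 1.58 CPM in the other 60577 tumors. Without that tumor its log2 difference was -0.47 (adjusted p = 0.588). Cytokines split, with 2 of 10 higher and 3 lower. Il33, an alarmin of stromal cells, was at 157 to 832 CPM against 63.9 to 112 CPM (6.42-fold higher), while the IL-1 family genes Il1rn and Il1a were 3.73-fold and 4.98-fold lower. Complement genes were higher in 4 of 15 and lower in 2. C3, the central component, was at 777 to 3215 CPM in HGS2 and 3277 to 5257 CPM in 60577 tumors (2.32-fold lower) and lost its call without the atypical tumors (log2 -0.73, adjusted p = 0.0859). The complement inhibitor Cd55 was 3.37-fold lower. Cfd was higher by 4.43 ± 1.40 on the log2 scale, and C7 was called higher at 0.524 to 9.71 CPM against 0 to 0.577 CPM.

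The models were also compared at each collection time. At TP1 alone 3507 genes were called (21.6%), 1978 higher and 1529 lower in HGS2, and at TP2 alone 2654 (16.3%), 1527 higher and 1127 lower. Their control tumors are separate sets. The change in the difference from TP1 to TP2, tested as an interaction, was called for 0 genes (0%) in edgeR, where the smallest adjusted p was 0.392 and 1272 genes (7.83%) had an unadjusted p below 0.05. DESeq2's Wald test called 25 and limma-voom 0. With HGS2 TP1 replicate 2 left out, which leaves only the mesothelial-low tumors at HGS2 TP1, edgeR called 227. By list, fibrillar collagens had 9 higher genes at each time, interferon-stimulated genes 11 at TP1 and 7 at TP2, macrophage genes 10 and 7, and endothelial markers 6 and 0.

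The cell lines in monoculture carry the malignant part without host tissue. Of 13742 genes tested there (n = 2 per line), 1037 were higher in the HGS2 line (7.55%) and 1152 lower (8.38%). These counts depend on single libraries: the total of 2189 was 503 and 783 without 60577 cell line replicates 2 and 1, and 3521 without HGS2 cell line replicate 2, and the shared counts that follow rest on the full set. Of tumor genes higher in HGS2, 1194 were also tested in the lines: 520 were higher in the HGS2 line and 50 lower. These 520 are 43.6% of the 1194 tumor genes and 53.4% of the 974 line genes that could be compared. Of tumor genes lower in HGS2, 1137 were tested in the lines, with 496 lower (43.6%, or 47.4% of 1046) and 23 higher, while 952 higher and 294 lower tumor genes were too low in the lines to be tested.

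**Figure D4:**
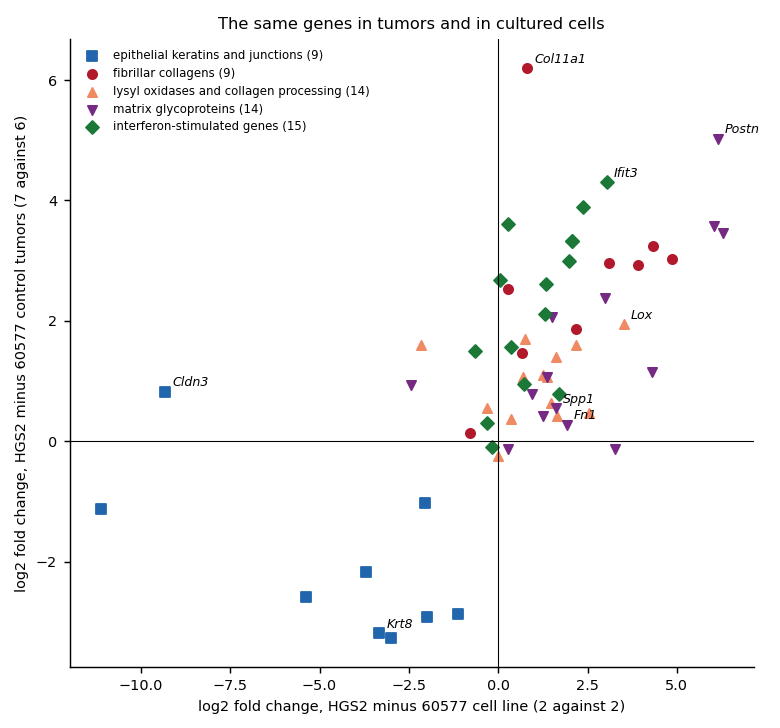
Log2 difference of HGS2 minus 60577 in the cell lines (horizontal axis, 2 against 2) against that in the control tumors (vertical axis, 7 against 6), 1 point per gene of 5 lists tested in both. Keratins such as Krt8 lie at lower left and Postn (6.15 in the lines, 5.03 in the tumors) at upper right, while Col11a1 is high on the tumor axis only (0.80 and 6.20).

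Epithelial genes differed between the lines in the direction seen in the tumors, with 8 of 9 lower in HGS2. Krt8 was at 76.3 and 158 CPM in the HGS2 line and 1205 and 1140.0 CPM in the 60577 line (log2 -3.32). Collagens were also expressed by the malignant cells in culture. Col1a1 was at 13409 and 7257 CPM in the HGS2 line and 789 and 229 CPM in the 60577 line (log2 4.34, adjusted p = 0.0201), and Lox was at 3599 and 1612 CPM against 321 and 138 CPM (log2 3.51). Of 9 fibrillar collagens tested in the lines 4 were higher, of 14 matrix glycoproteins 7, and of 11 fibroblast markers 7; the latter lists had 1 lower gene each. Col11a1 was at 109 and 111 CPM against 111 and 15.1 CPM and was not called. Esr1 was at 29.4 and 24.0 CPM in the HGS2 line and 4.50 and 5.30 CPM in the 60577 line (log2 2.45).

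Interferon-stimulated genes had none of 15 called between the lines, although their median log2 difference was 1.303, toward HGS2 as in the tumors. Ifit3 was at 82.2 and 6.07 CPM in the HGS2 cultures and 6.78 and 3.98 CPM in the 60577 cultures, so the HGS2 cultures themselves lay far apart. In the HGS2 culture with 82.2 CPM, Irf7 was at 125 CPM and Ifit1 at 145 CPM, against 10.7 and 10.8 CPM in the other. With so few cultures and such a spread, the lack of calls cannot show that the lines are alike. The malignant cells' share of the tumor difference in these genes was not tested. T cell genes were near 0 in both lines, and the 12 macrophage genes summed to 9.68 to 37.5 CPM. Adgre1, C1qa and Cd8a had no count in any of the 4 libraries. The separate list of resident macrophage genes was not low in the lines, as given above.

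The 12 protein-coding genes with the largest fitted differences in each direction were named by rule. Only called genes without overlap between the models, at a mean of at least 10 CPM in the higher model, could enter. Trim12a, Gm14296 and Gm16867 had no count in any 60577 control tumor and were at least 200-fold, 164-fold and 114-fold higher in HGS2, taking 3 counts per library as the floor. Both 60577 cell line libraries also had none of them. No fold is given for the other genes whose lower model had a median of only a few counts. Ifi206 and Ifi213, interferon-inducible nucleic acid sensors, were at 1.82 to 20.8 CPM and 2.67 to 34.8 CPM in HGS2 and at no more than 0.165 and 0.229 CPM in 60577 tumors. Gm14295 was at 8.19 to 15.9 CPM against 0 to 0.247 CPM. Ptn, the growth factor pleiotrophin, was at 21.7 to 1476 CPM in HGS2 and 0.560 to 16.0 CPM in 60577 tumors (145-fold), and the mesodermal transcription factor Tbx15 was at 3.71 to 15.4 CPM against 0 to 0.0980 CPM. C1qtnf3 was 192-fold higher, and Lrrc17 was at 1.41 to 159.7 CPM against 0.0311 to 1.38 CPM. H2-Eb1, described above, and Hba-a2 complete the set. Hba-a2 is nearly identical to Hba-a1, which was called in the other direction, so neither value stands alone.

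Among genes lower in HGS2, Nos1, the neuronal nitric oxide synthase (chr5:117781032-117958840, GRCm38, + strand), was at 0.155 to 0.484 CPM in HGS2 and 109.7 to 174 CPM in 60577 tumors (519.8-fold). In the cell lines it was at 0 and 0.162 CPM against 1.65 and 2.79 CPM. Pgc, the gastric protease progastricsin, was at 0 to 2.31 CPM against 112 to 198 CPM. Nr5a1, the steroidogenic factor SF-1 (chr2:38692656-38714542, GRCm38, - strand), was at 0 to 0.0758 CPM against 12.4 to 17.97 CPM, and in the lines at 0 and 0 against 7.32 and 6.36 CPM. Syt14, a synaptotagmin, was at 0 to 0.952 CPM against 28.3 to 44.4 CPM, and Cntn2, a neural adhesion molecule, at 0 to 0.363 CPM against 8.84 to 35.3 CPM. Pnpla1, Gm43302, Aard, Togaram2 and Ifi202b had HGS2 medians of 0, 0, 0.0379, 0.207 and 0.0345 CPM and 60577 medians of 22.6, 24.0, 9.86, 27.2 and 28.4 CPM. Non-overlap between the models was a condition of the rule for these genes and is no separate result. Gm10260 and Gm11361, at 152-fold and 138-fold, were also lower in the HGS2 line (log2 -7.34 and -6.18). The Trim12, Gm14295 and Ifi200 families hold near-identical copies that differ between strains, so their values are uncertain.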

How the data were processed

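Total RNA of frozen omental tumors and cultured cells was depleted of ribosomal RNA and sequenced strand-specifically as 150-base read pairs. The authors trimmed reads (Trim Galore 0.6.5), aligned them to the C57BL/6J-based GRCm38 (mm10) genome with STAR 2.7.0f and deposited RSEM expected counts per gene, used here after rounding. Strand-aware counting was not stated in the sources used here. Reads shared by near-identical genes are divided by an estimate in such counts.

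Genes with at least 1 CPM in 25% of 33 tumors were tested with edgeR 4.0.16 (R 4.3.3), TMM scaling and the quasi-likelihood test in 1 fit over 10 groups of tumors; 1 treated HGS2 tumor the study does not show was left out. The difference was the mean of the TP1 and TP2 differences, with Benjamini-Hochberg adjustment over all genes tested, and SE is the log2 fold change over the root of F. The 4 cell line libraries were fitted separately. Log2 CPM used a prior count of 2. The 12 genes per direction named by rule were protein-coding and had the largest called differences. They also had no overlap between the models and a mean of at least 10 CPM in the higher model. The others came from 48 lists of 544 genes. Members and lists were chosen with earlier results of these data known. limma-voom 3.58.1, DESeq2 1.42.0 and other filters, scalings, covariates and left-out libraries were alternatives, and the fits were tested on simulated data. Labels do not say whether replicates are separate mice, although the study's captions speak of replicate mice. P-values measure the spread between these samples. Replicate counts differed by more than sampling noise in all 15 pairs compared (chi-square per degree of freedom at least 10.6). Replicate numbers did not pair tumors: deviations of same-numbered tumors correlated at -0.309 to -0.0735.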

Additional observations from a re-analysis of the deposited data

Results flagged for a closer look

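A sample was flagged where its gap to the nearest other sample of its model was large for the range of that model (Dixon's 95% limit); 40 such tests were made, and chance flags about 1 in 20. The mean log2 CPM of matrix glycoproteins in HGS2 TP2 control replicate 3 was 8.1, the lowest of the 7 HGS2 tumors, with the next at 8.47. The gap was 0.67 of the range. The percent of counts in 7SL RNA was 14.1 in 60577 TP2 control replicate 1, with the next 60577 tumor at 4.91 and a gap of 0.82 of the range.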

How the results depend on the processing

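Counts of called genes were recomputed under each alternative. Without a filter on low counts, 2228 genes were lower in HGS2 tumors (1431 with the filter) and 3849 differed between the cell lines (2189 with it); more genes were tested, and the cause was not tested further. Leaving out 1 tumor at a time gave 2025 to 2314 higher genes, 1369 to 1616 lower, 2906 to 3677 called at TP1, 2114 to 2827 at TP2, and 0 to 227 whose difference changed from TP1 to TP2, the 227 without HGS2 TP1 replicate 2. DESeq2's Wald test called 25 such genes. Leaving out 1 library gave 503 to 3521 genes between the cell lines, 503 and 783 without 60577 cell line replicates 2 and 1 and 3521 without HGS2 cell line replicate 2, where the lone culture is assumed to vary like the other line. The between-model distance exceeded the within-model distance by 0.0870 to 0.103 with 1 tumor left out. With the replicate number as a block, 2078 genes were higher and 1458 lower; same-numbered tumors deviated apart (median correlation -0.14) and different-numbered ones not (0.0901), so the numbers do not pair tumors. The next settings, and that without all 3 atypical tumors, were chosen after seeing the data. Without the acinar-rich HGS2 tumors 2065 genes were higher and 1713 lower, and without the mesothelial-low ones 1829 and 1418. limma-voom called 1751 higher and 1617 lower. Of 108 called genes tracked singly, 95 kept their call under every alternative, none changed sign, and 13 lost it under at least 1: Acan, Adipoq, Arg1, C3, Cxcl2, H2-K1, Lama2, Marco, Mcm6, Mycn, Pgr, Timd4 and Wt1. The tracked genes are only part of those named above. Loxl4, Notch1, Notch4, Vegfa and the called endothelial markers, which lost their call without the atypical tumors, were not tracked. Size-factor scaling of the distance was not run. Depth limited genes below 1 CPM.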

Other observations

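Genes of gonadal somatic cells beyond Nr5a1 were lower in HGS2 tumors; these were chosen after their values were seen. Foxl2, a transcription factor of ovarian granulosa cells, was at 0 to 0.224 CPM in HGS2 and 3.05 to 11.2 CPM in 60577 tumors. Amhr2, the receptor for anti-Müllerian hormone, was at 0.415 to 38.8 CPM against 163 to 318 CPM (29.0-fold lower), and in the cell lines at 0.910 and 1.19 CPM against 25.5 and 30.3 CPM. Gata4 was at 7.26 to 78.6 CPM against 122 to 156 CPM (4.71-fold lower) and at 11.4 and 10.1 CPM against 137 and 151 CPM in the lines. Inha and Dhh had log2 differences of -2.59 ± 0.28 and -1.88 ± 0.45. Fshr and Cyp19a1, markers of mature granulosa cells, had no count in any of the 13 tumors or 4 cell line libraries.

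Median differences varied by chromosome, and in both kinds of sample. Genes on chromosome 12 had a median log2 difference of 0.39 in tumors and 0.50 in cell lines, those on chromosome 19 of -0.32 and -0.65, and those on chromosome 15 of -0.20 and -0.42.

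Some genes had no count in any library of 1 model. Cd300ld4, Cd300ld5, 2210418O10Rik, Nlrp1c-ps, Gm16867, Gm21451 and 6820402A03Rik were at 0 in all 60577 libraries and above 1 CPM in all HGS2 control tumors, and D130009I18Rik was the converse. Hba-a1 and Hba-a2 summed to 15.4 to 233 CPM in HGS2 (median 31.5) and 20.6 to 507 CPM in 60577 tumors (median 165).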
